A study of Mus musculus with 16 samples.

Results

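Lgr5+ ISC/progenitor cells sorted from the duodenum were compared with Lgr5+ ISC/progenitor cells sorted from the ileum. All 6 duodenal libraries (4 VSG-treated and 2 sham-treated) and all 4 ileal libraries (2 VSG-treated and 2 sham-treated) entered the comparison, 10 of the 16 libraries in the series. The cells came from 7 female mice that express EGFP from the Lgr5 gene. Every mouse was made obese with a diet with 60% of its energy from fat for 16 weeks. VSG, vertical sleeve gastrectomy, removes 80% of the stomach, and sham-treated mice had the stomach pressed with forceps. Cells were collected 4 weeks after surgery, after an overnight fast and a liquid meal given 15 min before death. Ages were stated as 8 to 16 weeks for all animals of the study, without the step to which they apply. The study measured how VSG acts on these cells within each segment, so obesity, diet and meal were common to both segments and no lean or chow-fed group was present. Libraries are named by segment, surgery and replicate, and 3 mice gave a library of both segments (VSG 4, sham 1 and sham 2).

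The small intestine is patterned along its length. Absorption of iron, calcium, fat and retinoids is strongest near the stomach, whereas the terminal ileum takes up bile acids and vitamin B12. Lgr5-expressing cells at the crypt base renew the epithelium, and region-specific transcription factors such as Pdx1, Gata4 and the Hox genes are known to mark position along the gut. Sorting on GFP also collects early progeny of the stem cells, because the fluorescent protein persists after the Lgr5 gene is switched off.

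Promoters of 3 genes are shown because these genes separated the segments without overlap and are textbook markers of their segment: Fabp6 and Slc10a2 of the ileum, and Pdx1 of the duodenum. Each sequence is the 250 bases before the RefSeq start site in GRCm38.p6, on the strand of the gene. RefSeq starts differ from the GENCODE gene bounds given further below. By those bounds the Slc10a2 and Pdx1 windows run into the gene. Capitals mark TTTATG, a core of sites bound by the intestinal CDX factors, on either strand.
Fabp6, chr11:43601563-43601812, minus strand: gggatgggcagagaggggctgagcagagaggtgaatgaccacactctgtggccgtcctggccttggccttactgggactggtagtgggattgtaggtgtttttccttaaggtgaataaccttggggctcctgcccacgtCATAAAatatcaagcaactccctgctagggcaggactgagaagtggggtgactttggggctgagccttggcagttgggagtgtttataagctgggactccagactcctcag
Slc10a2, chr8:5105288-5105537, minus strand: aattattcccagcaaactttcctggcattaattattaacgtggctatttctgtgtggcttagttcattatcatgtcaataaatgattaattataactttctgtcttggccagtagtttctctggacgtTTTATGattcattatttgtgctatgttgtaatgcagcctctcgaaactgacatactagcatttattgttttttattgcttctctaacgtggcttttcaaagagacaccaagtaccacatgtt
Pdx1, chr5:147269847-147270096, plus strand: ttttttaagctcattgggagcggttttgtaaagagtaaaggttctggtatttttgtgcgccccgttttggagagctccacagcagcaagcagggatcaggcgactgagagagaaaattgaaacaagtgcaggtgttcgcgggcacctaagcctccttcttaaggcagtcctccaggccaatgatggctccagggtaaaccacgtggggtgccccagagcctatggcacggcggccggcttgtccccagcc
The Fabp6 match lay at -111 and the Slc10a2 match at -122 from the start site, and the Pdx1 window held none. AGATAA, a core of GATA sites, was searched on both strands too, and none of these 3 windows held it. Over 300-base windows that include the start site, TTTATG stood in 26 of 401 promoters (6.48%) of genes called higher in the ileum without overlap and in 52 of 889 (5.85%) of those called higher in the duodenum, beside 6.74% of the promoters of all tested genes. AGATAA stood in 8.48% and 6.41%, beside 6.96% of tested genes. Both motifs were therefore about as common in the promoters of either set as in those of all tested genes.

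Levels below are rescaled normalized counts, that is, the deposited DESeq2-normalized counts brought to 1 scale over the 10 libraries. Values are not per length, so they compare libraries for 1 gene and not genes with each other. Implied sequencing depth was 33.7 to 63.6 M reads in the duodenum and 10.9 to 36.4 M in the ileum. Genes at 0 were more frequent in the ileum: of 14005 genes with a mean above 50 in either segment, 47.0% were listed at 0 in at least 1 ileal library and 15.7% in at least 1 duodenal library. The spread among libraries was larger in the ileum for 78.2% of tested genes. Library ileum VSG 4 was closer to the duodenal libraries than the other ileal libraries were. Its log2 values correlated at 0.744 to 0.799 with the duodenal libraries, across genes that are not independent replicates. The other ileal libraries correlated at 0.595 to 0.698 with the duodenal ones. They correlated at 0.68 to 0.721 with ileum VSG 4 and at 0.673 to 0.702 with each other. Ileum VSG 4 also had the highest implied depth (36.4 M) and the most genes above 0 (13971) of the ileal libraries. The epithelial marker Epcam ranged from 38160 to 47490 in the duodenum and from 48160 to 80400 in the ileum.

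**Figure D1:**
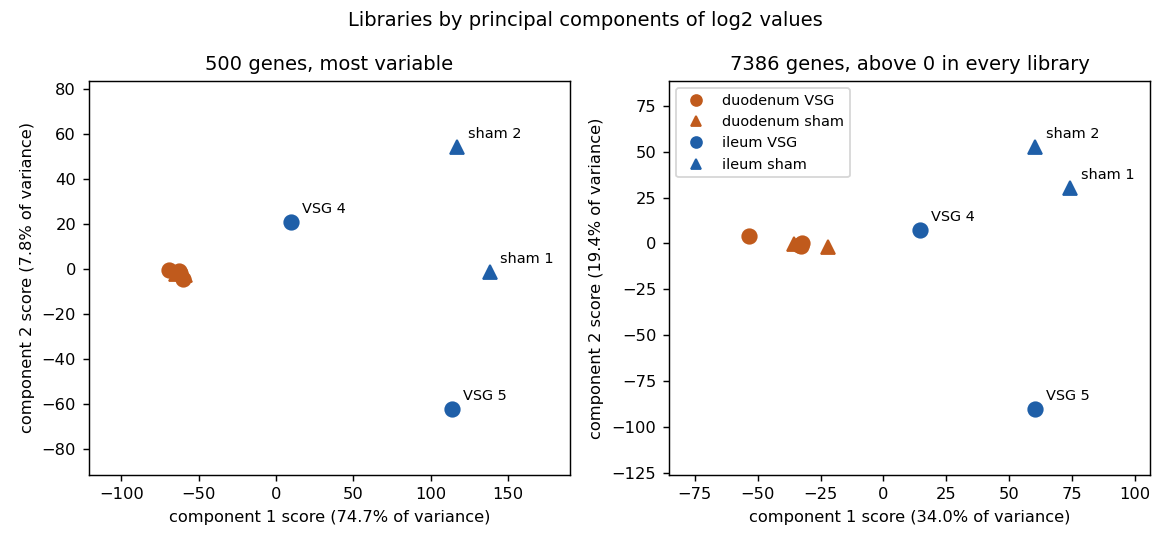
Principal components of log2 rescaled normalized counts, with 1 point per library, for the 500 most variable genes (left) and for tested genes above 0 in every library (right); axes give component scores and their share of variance. On the left, component 1 (74.7% of variance) placed duodenal libraries at -69.3 to -58.8, ileum VSG 4 at 9.76 and the other ileal libraries at 114 to 138.

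Of 16133 genes tested with limma, 1811 were called higher in the duodenum (11.2% of tested genes) and 656 higher in the ileum (4.07%) at an adjusted p under 0.05, and 5250 genes had an unadjusted p under 0.05. Groups did not overlap for 1700 genes higher in the duodenum (10.5%) and 735 higher in the ileum (4.56%). Both conditions held for 1218 (7.55%) and 559 (3.46%) genes. The excess in the duodenum went along with zeros in the ileum: 1359 of the 1811 genes (75%) were listed at 0 in at least 1 ileal library, and 537 (29.7%) in all 4. Only 52 of the 656 genes called higher in the ileum (7.93%) were at 0 in any duodenal library. Among the 7460 genes above 0 in every library, tested alone, the order turned, with 545 called higher in the duodenum (7.31%) and 675 higher in the ileum (9.05%). Genes that every cell uses were among the zeros, and 3 are named here after their values were seen. The mitochondrial gene mt-Nd3, a subunit of respiratory complex I, measured 9088 to 21870 in the duodenum and 11220 and 8934 in ileum VSG 4 and VSG 5, and was listed at 0 in ileum sham 1 and sham 2. Parp1, a DNA repair enzyme, and Hars2, a mitochondrial tRNA synthetase, were also listed at 0 in those 2 libraries and at no less than 402.7 in the other 8. In all, 258 tested genes were listed at 0 in both ileal sham libraries and above 100 in the other 8. A 0 below says only that the gene was listed at 0 in that library, and an adjusted p against such zeros rests on that listing. Implied depth was 21.5 M reads in ileum sham 1 and 10.9 M in ileum sham 2, and the part of lower depth in these zeros was not tested.

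The median log2 difference (duodenum minus ileum, as in all differences below) was 0.84 over all tested genes and 0.06 over genes above 0 in every library. A difference of a single gene is to be read against these medians. Without rescaling, the values as deposited gave a median of 1.97 and put 98.1% of calls in the duodenum, against 73.4% after rescaling and 64.1% after quantile normalization. With libraries weighted by their spread, a refit chosen after the data were seen, calls were 533 and 192. Leaving out ileum VSG 4 gave 2518 and 607 calls, and 2095 of the 2467 original calls were kept. Leaving out duodenum sham 1 or sham 2 lowered the calls to 854 or 841 in the duodenum and to 410 or 381 in the ileum, and leaving out duodenum VSG 2, VSG 3 or VSG 4 lowered the duodenal calls to 1142, 1083 or 1103. Without ileum VSG 4, the genes that did not overlap and were higher in the duodenum numbered 2797.

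Within the 3 mice that gave both segments, 1597 of the 1811 genes called higher in the duodenum (88.2%) were higher there in all 3 mice, compared with 26.3% of all tested genes. Of the 656 genes called higher in the ileum, 643 (98.0%) were higher there in all 3 mice, compared with 11.4% of all tested genes. The libraries of these mice were among those that made the calls. For the 1218 and 559 genes called without overlap, the same direction in all 3 mice follows by definition. These shares are therefore no separate support for the calls. A paired limma fit on these 6 libraries alone, with the mouse as a replicate block, called 0 genes (smallest adjusted p = 0.164), with an unadjusted p under 0.05 for 1554 genes higher in the duodenum and 792 higher in the ileum. None of the called genes named below passed in that fit.

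**Figure D2:**
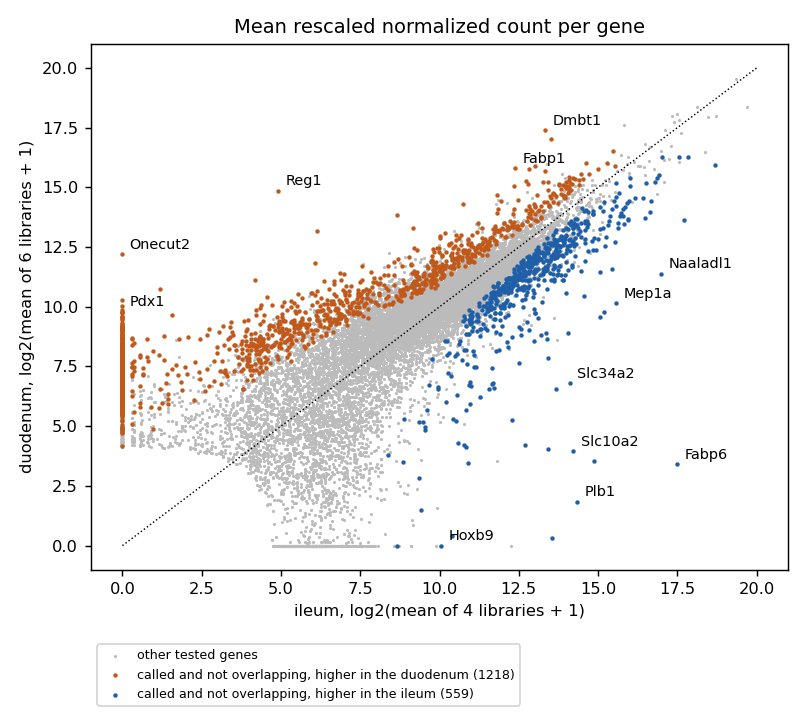
Mean rescaled normalized count of each tested gene in the 4 ileal libraries (horizontal) and the 6 duodenal libraries (vertical), both as log2(mean + 1), with the dotted line at equal means. Coloured points are the 1218 and 559 genes called and not overlapping; a column of points at 0 on the horizontal axis holds genes listed at 0 in every ileal library.

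Genes of bile acid uptake and export were higher in ileal cells. Fabp6, the cytosolic ileal bile acid binding protein (ENSMUSG00000020405, GRCm38 chromosome 11 from 43596049 to 43601540 on the minus strand), was listed at 0 in 5 of 6 duodenal libraries and at 57.3 in the sixth. In ileum VSG 4, VSG 5, sham 1 and sham 2, the order kept for all ileal values below, it stood at 118100, 47530, 345000 and 223600. The log2 difference was -16.16 ± 1.33 (SE; limma adjusted p = 0.000228). Slc10a2, the apical sodium-dependent bile acid transporter (ENSMUSG00000023073, chromosome 8 from 5083219 to 5105351 on the minus strand), measured 0 to 31.2 (median 12.6) in the duodenum and 12660, 4776, 24190 and 34740 in the ileum (log2 difference -11.30 ± 1.46, adjusted p = 0.00126). Slc51a and Slc51b encode the subunits of the basolateral exporter that passes bile acids to the blood. Slc51a measured 1424 to 3785 (median 3378) in the duodenum and 35220, 36640, 52460 and 51440 in the ileum, a log2 difference of -3.81 ± 0.25, adjusted p = 4.21e-05. Slc51b gave 190.5 to 792 (median 467) and 7662, 5995, 17580 and 10730 (log2 difference -4.33 ± 0.39, adjusted p = 0.000315). Fgf15, the hormone that the ileum releases when the bile acid receptor FXR is active, measured 0 to 38.8 (median 14.8) in the duodenum and 4034, 5083, 8037 and 9254 in the ileum, a log2 difference of -9.59 ± 1.30, adjusted p = 0.0015. No library of either segment fell within the range of the other for these 5 genes. Of 12 tested genes of bile acid transport and FXR response, 6 were called higher in the ileum (50%) and 1 in the duodenum, with a median log2 difference of -2.39 beside 0.84 over all tested genes. The sixth was Nr1h4, which encodes FXR itself, and the gene higher in the duodenum was Nr0b2, a repressor induced by FXR. In each of the 10 fits that left out 1 library, 6 members were called higher in the ileum, while the count higher in the duodenum was 2 without ileum VSG 4, 1 without duodenum VSG 2 and 0 without any 1 of the other libraries.

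Genes for vitamin B12 uptake, the other textbook task of the ileum, differed in both directions. Cubn and Amn encode the receptor complex that takes up the vitamin bound to intrinsic factor. Cubn ranged over 0 to 3049 (median 331) in the duodenum and 15860, 28530, 44110 and 62020 in the ileum (log2 difference -6.75 ± 1.55, adjusted p = 0.0174), and its call was lost without ileum VSG 5 (adjusted p = 0.0652). Amn measured 878 to 2526 (median 1558) and 6718, 6798, 12050 and 5809 (log2 difference -2.17 ± 0.30, adjusted p = 0.0016). Tcn2, the plasma carrier of the vitamin, measured 4683 to 8549 (median 6368) and 10590, 17920, 26900 and 20920, a log2 difference of -1.41 ± 0.23, adjusted p = 0.00351. Cd320, the receptor for that carrier, ran the other way, with 432 to 841 (median 593) in the duodenum and 76.6, 0, 0 and 0 in the ileum (adjusted p = 0.00587). Of 7 tested genes of the list (median log2 difference -0.89, or 0.37 as deposited), 3 were called higher in the ileum and 2 higher in the duodenum, the latter 1 without duodenum VSG 4, duodenum sham 1 or sham 2 or ileum VSG 5.

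Digestive enzymes of the brush border were mostly higher in ileal cells. Mep1a, the alpha subunit of the metalloprotease meprin (chromosome 17 from 43474324 to 43502812 on the minus strand), measured 650.4 to 1616 (median 1105) in the duodenum and 32350, 35910, 52940 and 72230 in the ileum, where it was 42.3 times higher on average (log2 difference -5.26 ± 0.23, adjusted p = 2.74e-06). The beta subunit gene Mep1b gave 4560 to 17910 (median 11590) and 40700, 54140, 73810 and 59500 (log2 difference -2.34 ± 0.30, adjusted p = 0.00126). Naaladl1, an aminopeptidase, measured 1085 to 5277 (median 2410) in the duodenum and 85180, 93870, 151900 and 190900 in the ileum, where it was 48.9 times higher on average (log2 difference -5.53 ± 0.27, adjusted p = 5.22e-06). Every ileal library was above every duodenal library for the 3 genes. Enpep, another aminopeptidase, had a log2 difference of -2.70 ± 0.34, adjusted p = 0.00114, and Enpp7, a sphingomyelinase, one of -5.19 ± 0.73, adjusted p = 0.00179. Plb1, a phospholipase of the brush border, was listed at 0 in 5 of 6 duodenal libraries and at 15.3 in the other, and stood at 12410, 34930, 24330 and 11710 in the ileum (adjusted p = 0.000295). Akp3, an alkaline phosphatase of the duodenum, was the opposite case, with 2243 to 20520 (median 4666) in the duodenum and 276, 0, 0 and 0 in the ileum (adjusted p = 0.00266). Of 20 tested enzymes (median log2 difference -1.58), 11 were called higher in the ileum (55.0%) and 3 in the duodenum (15%), the latter 1 without duodenum sham 1 or sham 2 and 5 without ileum VSG 5.

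Several amino acid transporters were higher in ileal cells. Of 17 tested genes (median log2 difference -1.14, or 0.12 as deposited), 8 were called higher in the ileum (47.1%) and 1 in the duodenum (0 without duodenum sham 2), and without any 1 library the ileal count was 8 or 9. Slc1a1, a glutamate transporter, measured 741 to 2031 (median 1875) in the duodenum and 6761, 6927, 14620 and 14970 in the ileum (log2 difference -2.51 ± 0.32, adjusted p = 0.00126). Slc3a1, the heavy chain of the cystine and basic amino acid transporter, measured 1314 to 4259 (median 2562) and 9845, 11220, 14890 and 22160 (log2 difference -2.37 ± 0.26, adjusted p = 0.00068). The basolateral transporter Slc7a7 and the neutral amino acid transporter Slc43a2 had log2 differences of -1.41 ± 0.23 and -1.83 ± 0.35, with adjusted p-values of 0.00344 and 0.00738.

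**Figure D3:**
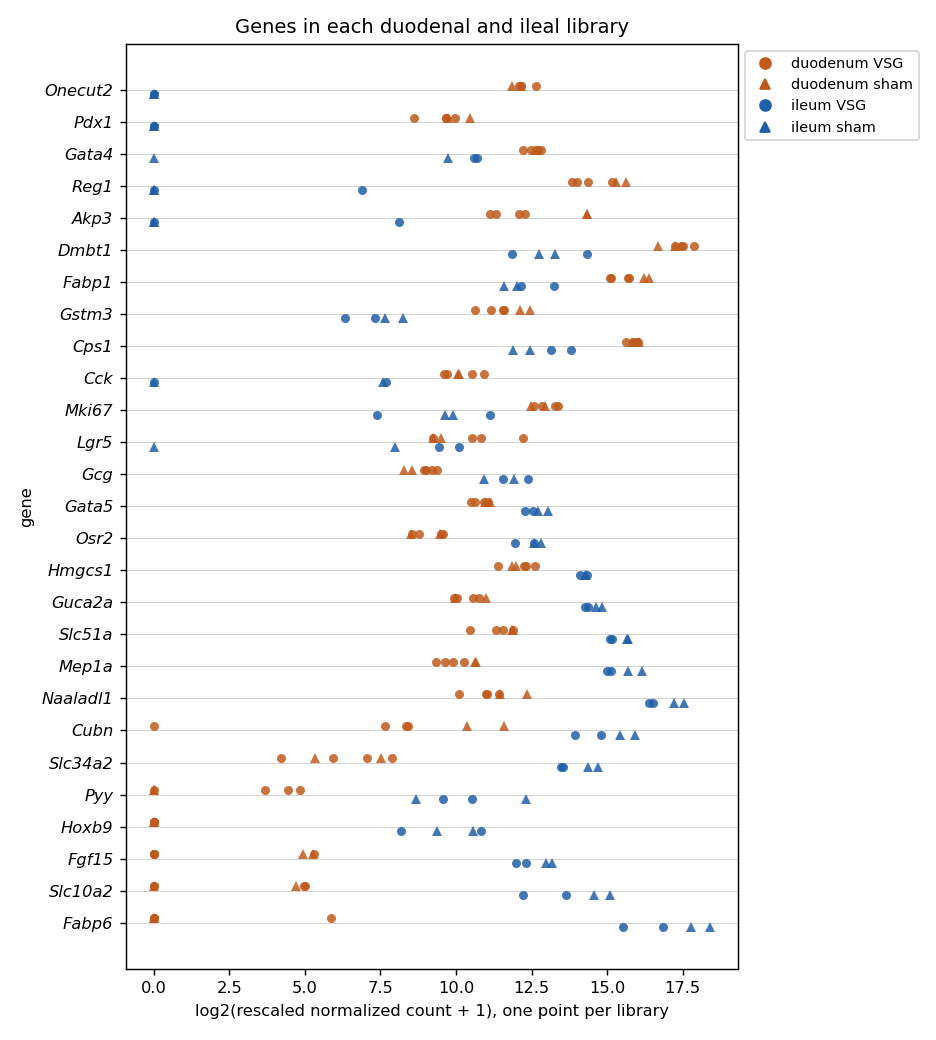
Log2(rescaled normalized count + 1) on the horizontal axis for 27 genes (rows), with 1 point per library, coloured by segment and shaped by surgery. Fabp6, Slc10a2, Fgf15 and Hoxb9 were at or near 0 in the duodenum and high in the ileum, Onecut2 and Pdx1 showed the reverse, and the Lgr5 points of the segments overlapped.

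Position-marking transcription factors split by segment. Onecut2, a liver and gut homeobox factor and the gene with the largest gap between segments among those higher in the duodenum, measured 3698 to 6353 (median 4543) in the duodenum and was listed at 0 in all 4 ileal libraries (adjusted p = 1.68e-05). Pdx1, the homeobox factor of pancreas and proximal duodenum (chromosome 5 from 147269959 to 147275848 on the plus strand), measured 394 to 1423 (median 834) in the duodenum and was listed at 0 in all 4 ileal libraries (adjusted p = 0.000395). The nuclear receptor gene Esrrg ran from 705 to 1045 and the homeobox gene Meis2 from 25 to 803 in the duodenum, and both were likewise listed at 0 throughout the ileum, with adjusted p-values of 0.000353 and 0.00415. Gata4, a zinc finger factor of proximal intestine, measured 4808 to 7160 (median 6432) in the duodenum and 1651, 1535, 843 and 0 in the ileum. The Gata4 groups did not overlap, but limma did not call the gene (log2 difference 4.43 ± 1.66, adjusted p = 0.096). Leaving out ileum sham 2, where Gata4 was at 0, gave a log2 difference of 2.25 with adjusted p = 0.00174.

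On the ileal side, Hoxb9 was listed at 0 in all 6 duodenal libraries and at 1817, 291, 1500 and 656 in the ileum (adjusted p = 0.000748). Hoxb6 reached at most 0.97 in the duodenum, where 1 read is worth 0.503 to 1.01, and stood at 1179, 264, 828 and 3135 in the ileum (adjusted p = 0.000878). Both belong to the Hoxb cluster on chromosome 11, whose genes mark successive levels along the body axis. Of 15 tested Hox genes (median log2 difference -3.40), 4 were called higher in the ileum (26.7%), all from the Hoxb cluster, and 0 in the duodenum. Without 1 library the ileal count was between 2 (without duodenum VSG 2, VSG 4 or sham 2) and 4. Osr2, a zinc finger factor, measured 365 to 764 (median 577) in the duodenum and 6183, 3962, 7116 and 6158 in the ileum (log2 difference -3.40 ± 0.38, adjusted p = 0.00068). Maf had a log2 difference of -2.56 ± 0.31, adjusted p = 0.00101, Gata5 one of -1.73 ± 0.23, adjusted p = 0.00133 and Klf4, a factor of differentiating epithelium, one of -1.93 ± 0.24, adjusted p = 0.00117. Of 29 tested regional factors (median log2 difference -0.26, or 0.99 as deposited), 5 were called higher in the duodenum (17.2%) and 7 in the ileum (24.1%), the latter 4 without duodenum VSG 4 or sham 2.

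Genes of iron and vitamin transport differed in both directions. Cybrd1, the duodenal ferric reductase, measured 1.01 to 1794 (median 286) in the duodenum and was listed at 0 in every ileal library (adjusted p = 0.0193), and its call was lost without duodenum sham 1 (adjusted p = 0.0612). Slc40a1, the iron exporter ferroportin, measured 319.9 to 13530 (median 3280) and 2902, 257, 902 and 15790, so the segments overlapped (log2 difference 1.07 ± 0.98, adjusted p = 0.452, 95% interval -1.10 to 3.25). The ferritin heavy chain gene Fth1 measured 64650 to 133100 (median 87910) and 42220, 37740, 64510 and 37170 (log2 difference 1.11 ± 0.18, adjusted p = 0.00315). Heph, the ferroxidase that works with ferroportin, was higher in the ileum, with a log2 difference of -1.56 ± 0.27, adjusted p = 0.00437. Slc19a3, a thiamine transporter, measured 17.7 to 258 (median 122) in the duodenum and was listed at 0 in every ileal library (adjusted p = 0.00379). The riboflavin transporter Slc52a3 was higher in the ileum, with 656 to 1087 (median 873) in the duodenum and 5107, 5853, 8264 and 13390 in the ileum (log2 difference -3.08 ± 0.31, adjusted p = 0.000467). Of 16 tested genes of this list (median log2 difference 0.73, or -0.07 over the 11 above 0 in every library), 3 were called higher in the duodenum (18.8%) and 2 in the ileum (12.5%).

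S100g, the calcium-binding protein calbindin-D9k, measured 1090 to 1942 (median 1310) in the duodenum and 134, 287, 0 and 0 in the ileum (adjusted p = 0.0149), and the call was lost without duodenum sham 1 (adjusted p = 0.0531) or sham 2 (0.0537). The phosphate transporter Slc34a2 was higher in the ileum, with 17.4 to 233 (median 95.7) in the duodenum and 11800, 11480, 26470 and 21110 in the ileum (log2 difference -7.61 ± 0.74, adjusted p = 0.000395). The calcium pump gene Atp2b1 was also higher in the ileum (log2 difference -1.42 ± 0.23, adjusted p = 0.00366). Trpm6, a magnesium channel, measured 31.8 to 90.2 (median 62.2) and 1516, 1117, 2919 and 2409, a log2 difference of -4.99 ± 0.67, adjusted p = 0.00148. Of 8 tested genes of calcium absorption and vitamin D (median log2 difference -1.195, or 0.93 as deposited), 1 was called higher in the duodenum and 3 in the ileum, the former 0 without duodenum sham 1 or sham 2 and 2 without duodenum VSG 2.

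Fat handling divided between the segments. Fabp1, the liver-type fatty acid binding protein (chromosome 6 from 71199827 to 71205023 on the plus strand), measured 34890 to 85420 (median 53710) in the duodenum and 4542, 9643, 4174 and 3082 in the ileum, and was 10.6 times higher in the duodenum on average (log2 difference 3.48 ± 0.35, adjusted p = 0.000484). Apoc2, the cofactor of lipoprotein lipase, measured 1725 to 11990 (median 4180) and 216, 1534, 510.0 and 256 (log2 difference 3.35 ± 0.65, adjusted p = 0.00738). Agpat2, which makes phosphatidic acid, was higher in the ileum (log2 difference -1.78 ± 0.25, adjusted p = 0.00162), and so was the desaturase gene Scd2 (-3.87 ± 0.72, adjusted p = 0.00641). Of 23 tested genes of lipid absorption (median log2 difference -0.34, or 0.92 as deposited), 4 were called higher in the duodenum (17.4%) and 8 in the ileum (34.8%). Cyp4a10, a fatty acid hydroxylase, measured 73.8 to 1207 (median 602) in the duodenum and was listed at 0 throughout the ileum (adjusted p = 0.00126), and Bdh1, an enzyme of ketone bodies, had a log2 difference of 1.23 ± 0.22, adjusted p = 0.00493. Of 20 tested genes of fatty acid oxidation and ketogenesis (median log2 difference 0.64), 4 were called higher in the duodenum and 2 in the ileum. The former numbered 2 without duodenum sham 1, duodenum sham 2 or ileum VSG 5 and 7 without ileum sham 2, and the latter 0 without duodenum VSG 2, duodenum VSG 4, duodenum sham 2 or ileum VSG 5 and 1 without duodenum VSG 1, duodenum VSG 3, duodenum sham 1 or ileum sham 1.

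Genes of cholesterol synthesis and uptake that passed the test were mostly higher in ileal cells. Hmgcs1, an early enzyme of the pathway, measured 2684 to 6261 (median 4464) in the duodenum and 20640, 17450, 20240 and 19830 in the ileum (log2 difference -2.19 ± 0.24, adjusted p = 0.000614). Sqle, squalene epoxidase, measured 904 to 2455 (median 1348) and 7277, 5343, 11890 and 7482 (log2 difference -2.41 ± 0.36, adjusted p = 0.00221). Scarb1, a scavenger receptor that takes up cholesterol, was the 1 gene called higher in the duodenum, with 204 to 1227 (median 545) there and 0, 0, 0 and 188 in the ileum (adjusted p = 0.00867). Of 17 tested genes (median log2 difference -0.895, or 0.36 as deposited), 8 were called higher in the ileum (47.1%), 6 to 8 when 1 library was left out, and 5 after quantile normalization.

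Several retinoid genes were higher in the duodenum. Rbp2, the cellular retinol carrier of enterocytes, measured 19310 to 58570 (median 35720) in the duodenum and 11630, 13380, 8136 and 10800 in the ileum (log2 difference 1.78 ± 0.27, adjusted p = 0.00237). Adh1, an alcohol dehydrogenase that oxidizes retinol, measured 17800 to 32900 (median 28330) and 2024, 7943, 1098 and 3173 (log2 difference 3.20 ± 0.47, adjusted p = 0.00207). Rbp4, the plasma retinol carrier, measured 53.7 to 222 (median 189) and was at 0 in 3 ileal libraries and at 2.24 in the other (adjusted p = 0.00334). Of 17 tested genes (median log2 difference 1.78, or 0.461 after quantile normalization with 3 called higher in the duodenum and 1 in the ileum), 5 were called higher in the duodenum (29.4%) and 2 in the ileum (11.8%), the latter 0 without duodenum sham 2 and 1 without duodenum VSG 2, duodenum sham 1 or ileum VSG 5. The glutathione transferase genes Gstm3 and Gsta1 were higher in the duodenum too, with Gstm3 at 1586 to 5653 (median 3053) against 79.5, 159, 300.2 and 202 (log2 difference 4.38 ± 0.39, adjusted p = 0.000315) and Gsta1 at a log2 difference of 2.85 ± 0.56, adjusted p = 0.00803. Sulfotransferase Sult2b1 (-1.96 ± 0.41), the cytochrome Cyp4f14 (-1.56 ± 0.27), the efflux pump Abcg2 (-1.84 ± 0.33) and the carboxylesterase Ces2e (-1.31 ± 0.21) were higher in the ileum, with adjusted p-values of 0.0112, 0.00414, 0.00561 and 0.00336. Of 35 tested genes of drug and toxin metabolism (median log2 difference 0.047, or -0.09 over the 24 above 0 in every library), 5 were called higher in the duodenum and 7 in the ileum, the former 3 without duodenum VSG 2 or VSG 4 and 2 without duodenum VSG 3, sham 1 or sham 2.

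Guca2a, the peptide guanylin that stimulates fluid secretion, measured 985 to 2020 (median 1283) in the duodenum and 21360, 19960, 28940 and 25560 in the ileum (log2 difference -4.12 ± 0.27, adjusted p = 4.21e-05). Slc9a2, a sodium/proton exchanger, had a log2 difference of -1.30 ± 0.25, adjusted p = 0.00794, and Slc5a8, a sodium-coupled transporter of short-chain fatty acids, measured 0 to 68.1 (median 3.98) in the duodenum and 8372, 8492, 13800 and 12780 in the ileum (log2 difference -10.98 ± 1.39, adjusted p = 0.00116). Junction genes Cdh17 and Cldn7 were higher in the ileum by small steps, with log2 differences of -0.88 ± 0.17, adjusted p = 0.00741 and -0.84 ± 0.16, adjusted p = 0.00683. Both turned sign on the values as deposited, at 0.38 (adjusted p = 0.0986) for Cdh17 and 0.42 (adjusted p = 0.0436) for Cldn7. Of 24 tested ion transport and guanylin genes (median log2 difference -0.53, or 0.72 as deposited), 5 were called higher in the duodenum (20.8%) and 9 in the ileum (37.5%), and 1 to 6 and 5 to 7 when 1 library was left out, with the lowest duodenal counts without duodenum sham 1 (2), duodenum sham 2 (1) or ileum VSG 5 (3) and the lowest ileal counts without duodenum VSG 4, sham 1 or sham 2 (5 each). Of 18 barrier genes (median log2 difference -0.58, or 0.68 as deposited), 5 were called higher in the ileum (27.8%) and 0 in the duodenum (1 without ileum sham 1), while quantile normalization left 2 and 1.

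The remaining genes of the ranking by gap, beyond those of the lists, were described by their values alone. Higher in the ileum were Pmp22, a peripheral myelin protein found at junctions, which reached at most 1.38 in the duodenum and 3368, 2861, 12810 and 28470 in the ileum (adjusted p = 0.000315), and Tmigd1, an adhesion protein of the brush border, which was at most 64.4 in the duodenum and 13230, 11220, 44290 and 51640 in the ileum (adjusted p = 0.000329). Mgat4c, a glycosyltransferase gene, measured 0 to 166 (median 89.5) and 10800, 13430, 16390 and 11850 (adjusted p = 0.00233), and Hspa12a measured at most 11.1 in the duodenum and 277 to 928 in the ileum (adjusted p = 0.00197). Every ileal library was above every duodenal library for these 4 genes.
Among genes above 0 in every library, a ranking added after the values were seen, the sulfite oxidase gene Suox (-5.32 ± 0.57, adjusted p = 0.000598), Nbl1 (-5.49 ± 1.14, adjusted p = 0.0109), Tmem117 (-3.52 ± 0.33, adjusted p = 0.000338), Dfna5 (-3.70 ± 0.45, adjusted p = 0.00104) and the actin-severing protein gene Gsn (-4.55 ± 0.40, adjusted p = 0.000315) had such log2 differences on the ileal side.

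Called higher in the duodenum and listed at 0 in every ileal library were C330027C09Rik, Dynlt1f, Chtf18, Gm10241, Lmcd1, Kif2c, Gm20559, Nle1 and Kif18b, with medians of 1087, 894, 716, 519, 559, 569, 436, 754 and 518 and adjusted p-values from 0.000315 to 0.000704. Kif2c and Kif18b are mitotic kinesins, Chtf18 loads the replication clamp and Nle1 serves ribosome assembly, functions that dividing cells of any segment use. Gm10241 is a processed pseudogene and Dynlt1f has near-identical copies, so their counts are uncertain.
Among genes above 0 in every library, Dmbt1, a mucosal glycoprotein of Brunner glands and crypts, measured 105500 to 242100 (median 166900) in the duodenum and 20710, 3708, 6864 and 9871 in the ileum and was 16.6 times higher in the duodenum on average (log2 difference 4.22 ± 0.39, adjusted p = 0.000333). Cps1, which makes carbamoyl phosphate for citrulline, measured 50540 to 67850 (median 61510) and 14310, 9068, 3793 and 5536 (log2 difference 2.98 ± 0.27, adjusted p = 0.000315). The mitochondrial genes Hspd1 (2.59 ± 0.28, adjusted p = 0.000664), Atad3a (2.12 ± 0.30, adjusted p = 0.00184) and Pck2 (3.07 ± 0.42, adjusted p = 0.0016), the nucleolar gene Nolc1 (2.09 ± 0.31, adjusted p = 0.00231), the chloride channel gene Clic6 (2.87 ± 0.31, adjusted p = 0.000664) and 2210407C18Rik (5.20 ± 0.42, adjusted p = 0.000214) had such log2 differences in the same direction. The pseudogenes Rps19-ps6 (4.48 ± 0.79) and Gm10110 (4.09 ± 0.89) did so as well, with adjusted p-values of 0.00495 and 0.0132, and share sequence with other genes.

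The gene that marks the sorted cells, Lgr5 (ENSMUSG00000020140, chromosome 10 from 115450311 to 115587780 on the minus strand), did not separate the segments. It measured 601 to 4725 (median 1100) in the duodenum and 1092, 685, 0 and 250.5 in the ileum, and the ranges overlapped. The difference of mean log2 values was 3.38 (two-sided exact permutation test over 210 splits, p = 0.0857, smallest possible 0.00952), and limma gave 2.85 ± 1.45, adjusted p = 0.199. Ileum sham 1, a library of cells sorted on a reporter of this gene, was listed at 0 for it.

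Other markers of stem cells that passed the test were all higher in the duodenum. Of 27 tested markers, 13 were called higher in the duodenum (48.1%) and 0 in the ileum, with a median log2 difference of 2.85 beside 0.84 over all tested genes. Of the 14 markers above 0 in every library, 8 were called, with a median of 2.07 beside 0.06. Nrn1 and Clu, the latter a marker of regenerating crypt cells, measured 238 to 1426 (median 355) and 80.1 to 627 (median 95.1) in the duodenum and were listed at 0 throughout the ileum (adjusted p = 0.00106 and 0.00271). Tnfrsf19, a receptor of crypt base cells, measured 115 to 878 (median 278) in the duodenum and 42.2, 0, 0 and 0 in the ileum (adjusted p = 0.0111). The summed level of the list ran from 90630 to 185500 in the duodenum and from 19480 to 52840 in the ileum, without overlap. Ileum VSG 4 held the highest ileal sum.

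Many proliferation genes were higher in the duodenum too. Of 26 tested genes (median log2 difference 4.61, or 2.49 over the 8 above 0 in every library), 12 were called higher in the duodenum (46.2%) and 0 in the ileum. Of the 26, 21 were higher in the duodenum without overlap, beside 10.5% of all tested genes. Mki67, the antigen of cycling cells, measured 5753 to 10580 (median 7687) in the duodenum and 2228, 166, 966 and 796 in the ileum (log2 difference 3.42 ± 0.60, adjusted p = 0.00468). The replication helicase subunit gene Mcm5 measured 2186 to 4784 (median 2623) and 875, 70.4, 654 and 755 (log2 difference 2.83 ± 0.67, adjusted p = 0.0192). Bub1b, a kinase of the mitotic checkpoint, measured 929 to 3585 (median 2026) in the duodenum and 323, 0, 0 and 0 in the ileum (adjusted p = 0.00445). Summed levels of the list were 51790 to 82440 in the duodenum and 7492 to 26610 in the ileum. The number called was 20 without ileum VSG 4, 19 without ileum sham 2 and 7 without duodenum sham 1 or sham 2. Krt20, a marker of differentiated cells, ranged from 5217 to 20690 in the duodenum and from 49980 to 81920 in the ileum. Alpi, an alkaline phosphatase of differentiated enterocytes named after its values were seen, ran the other way. It measured 15870 to 51080 (median 23980) in the duodenum and 8653, 17700, 15370 and 20200 in the ileum, so the segments overlapped (log2 difference 1.01 ± 0.26, adjusted p = 0.0271). The Alpi call was lost without duodenum VSG 3, VSG 4, sham 1 or sham 2 or ileum VSG 4 or sham 1 (adjusted p from 0.0503 to 0.0828). Stem cell and proliferation markers and Krt20 thus differed between the sorted cells of the segments together with the enterocyte genes above, and their part in those differences was not tested. In sorted bulk samples, fewer cells of a type and less RNA per cell cannot be told apart.

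**Figure D4:**
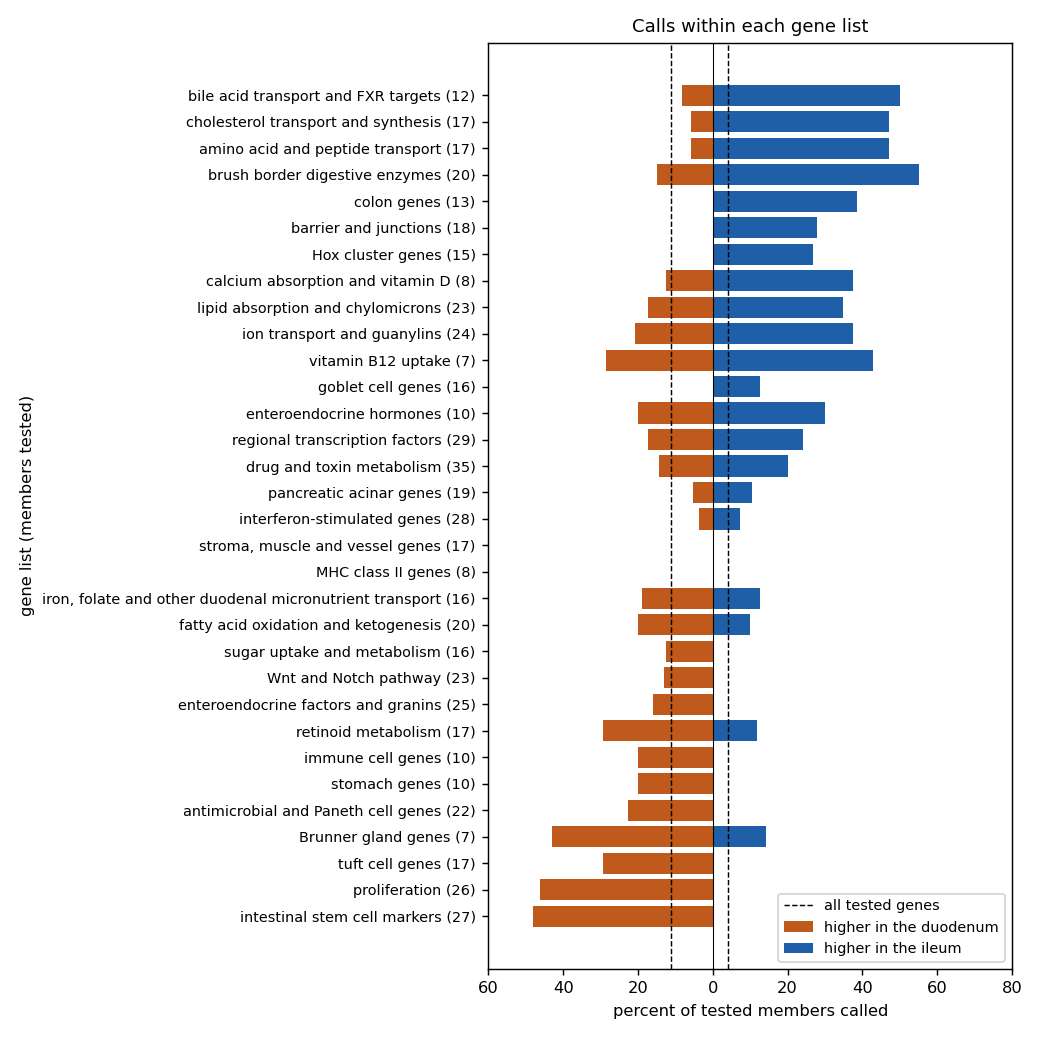
Percent of the tested members of each gene list (rows, number tested in parentheses) called higher in the duodenum (bars to the left) or in the ileum (bars to the right), with dashed lines at 11.2% and 4.07% for all tested genes. Stem cell markers (48.1%) and proliferation genes (46.2%) had the longest bars to the left, and brush border enzymes (55.0%) and bile acid genes (50%) the longest to the right.

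With libraries weighted by their spread, the number called in 1 direction or the other moved by more than 1.5 times in 26 of the 32 lists, and no list gained calls. Stem cell markers then had 9 called higher in the duodenum and proliferation genes 8, while brush border enzymes had 9 and bile acid genes 6 called higher in the ileum.

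Gut hormone genes differed in both directions. Cck, the hormone cholecystokinin of proximal gut, measured 784 to 1942 (median 1088) in the duodenum and 205, 0, 0 and 191 in the ileum (adjusted p = 0.0309). The Cck call was lost without any 1 duodenal library (adjusted p from 0.056 to 0.0794, the highest without sham 2) and without ileum VSG 5 (0.0907). Gcg, the preproglucagon gene that yields GLP-1, measured 311 to 661 (median 502) and 3027, 5339, 3880 and 1956 (log2 difference -2.92 ± 0.37, adjusted p = 0.00115). Pyy, the hormone peptide YY of distal gut, measured 0 to 27.9 (median 5.87) and 752, 1485, 5050 and 407 (log2 difference -8.38 ± 1.46, adjusted p = 0.00451). RNA of both genes, which encode peptides of the L cell, was higher in the ileum without overlap. Nts, neurotensin, measured 0 to 294 (median 89.6) and 984, 3794, 808 and 2457 (log2 difference -4.80 ± 1.46, adjusted p = 0.049), and its call was lost without any 1 library except duodenum VSG 1, with adjusted p-values of 0.051 to 0.151. Of 10 tested hormones (median log2 difference 1.55, or -1.58 over the 3 above 0 in every library), 2 were called higher in the duodenum and 3 in the ileum, the former 0 without any 1 duodenal library and 1 without ileum VSG 5 or sham 1. Chgb, the secretory granule protein chromogranin B, measured 6527 to 8287 (median 6902) and 4717, 5985, 1220 and 1603 (log2 difference 1.23 ± 0.34, adjusted p = 0.0364), and its call was lost without any 1 duodenal library or without ileum sham 1 or sham 2 (adjusted p from 0.0501 to 0.104). Sox4, a factor of secretory progenitors, measured 2947 to 5699 (median 3970) and 1283, 1410, 456 and 321 (log2 difference 2.28 ± 0.33, adjusted p = 0.00207). Of 25 tested enteroendocrine factors (median log2 difference 1.82, or 0.756 over the 6 above 0 in every library), 4 were called higher in the duodenum (16%) and 0 in the ileum (1 without ileum sham 1). The duodenal number was 9 without ileum VSG 4, 2 without ileum VSG 5, ileum sham 1 or duodenum VSG 1, VSG 2 or VSG 4, and 1 without duodenum VSG 3, sham 1 or sham 2.

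Reg1, an epithelial C-type lectin gene induced in regenerating mucosa, measured 14790 to 50220 (median 28980) in the duodenum and 117, 0, 0 and 0 in the ileum (adjusted p = 0.000395). Of 22 tested antimicrobial and Paneth cell genes (median log2 difference 1.94, or 0.544 over the 10 above 0 in every library), 5 were called higher in the duodenum (22.7%) and 0 in the ileum. The duodenal number was 9 without ileum VSG 4, 3 without ileum sham 1 and 1 without ileum VSG 5 or any 1 duodenal library, and the ileal number was 2 without ileum sham 1. Summed levels of the list overlapped, at 187000 to 539800 in the duodenum and 227800 to 1022000 in the ileum. Zg16, a goblet cell lectin, was higher in the ileum, with 3953 to 18380 (median 9053) in the duodenum and 44140, 36470, 19300 and 35310 in the ileum (log2 difference -1.97 ± 0.37, adjusted p = 0.00677), and 2 of 16 goblet cell genes (median log2 difference 0.29, or -0.60 without ileum VSG 5) were called there (12.5%), and 1 without duodenum sham 1, duodenum sham 2 or ileum VSG 4. Tuft cell genes (median log2 difference 2.80, or 1.41 over the 4 above 0 in every library) had 5 of 17 called higher in the duodenum (29.4%) and 0 in the ileum, with 8 called without ileum sham 2, 3 without duodenum VSG 1, VSG 3, VSG 4 or sham 2, and 1 without duodenum sham 1. Of 23 tested Wnt and Notch genes (median log2 difference 1.205), 3 were called higher in the duodenum (13%, near the 11.2% of all tested genes) and 0 in the ileum (1 without ileum VSG 4), with 7 called in the duodenum without ileum VSG 4, 1 without duodenum VSG 2, duodenum VSG 4 or ileum VSG 5, and 0 without duodenum sham 1 or sham 2. Over the 12 above 0 in every library the median was 0.321, and 0 were called when such genes were tested alone. Of 28 interferon-stimulated genes (median log2 difference 0.52, or -0.075 over the 15 above 0 in every library), 1 was called higher in the duodenum and 2 in the ileum. The former numbered 4 without ileum sham 1 and 2 without ileum VSG 4. The latter numbered 0 without duodenum sham 2 and 1 without duodenum VSG 1, VSG 3, VSG 4 or sham 1 or ileum VSG 4, VSG 5 or sham 1. Oas2, an antiviral enzyme, was the former, with 40.3 to 321 (median 157) in the duodenum and 0 in every ileal library (adjusted p = 0.00259). Of 8 tested MHC class II genes (median log2 difference -1.97), limma called 0 (1 in the ileum without ileum VSG 4 or duodenum sham 2). Of the 8, 5 were higher in the ileum without overlap, beside 4.56% of all tested genes. Sugar uptake genes (median log2 difference 0.19) had 2 of 16 called higher in the duodenum (12.5%, near the 11.2% of all tested genes) and 0 in the ileum. The duodenal number was 0 without duodenum sham 1, 2 without duodenum VSG 2 and 1 without any 1 of the other libraries, and the ileal number was 1 without ileum sham 1.

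Genes of other tissues and cells were examined over the same libraries. Of 19 tested pancreatic acinar genes, 1 was called higher in the duodenum and 2 in the ileum (median log2 difference 2.27, or -0.80 over the 4 above 0 in every library), and the latter, Spink1 and Zg16, are also expressed by intestinal epithelium. Spink1, a trypsin inhibitor, measured 1340 to 6907 (median 2917) in the duodenum and 11040, 12070, 18970 and 14360 in the ileum (log2 difference -2.15 ± 0.37, adjusted p = 0.00422). The summed acinar list ran from 7631 to 27030 in the duodenum and from 38410 to 59200 in the ileum. Most of the sum in every library was Zg16 (19300 to 44140 in the ileum) and Spink1. Enzymes that only acinar cells make in quantity, such as Ctrb1, Pnlip and Cel, were above 0 only in duodenum VSG 2 and VSG 3, and 16 members were at 0 in every ileal library. Ctrl, the acinar gene called higher in the duodenum, measured 26.1 to 459.7 (median 63.6) there and 0 in the ileum (adjusted p = 0.00656).
Of 10 tested stomach genes (median log2 difference 3.915), 2 were called higher in the duodenum. Pgc, a pepsinogen also made by Brunner glands, measured 84.3 to 769 (median 408) there and 0 in every ileal library (adjusted p = 0.00188), and Gkn3 measured 628 to 2254 (median 1130) and 89.3, 0, 0 and 0 (adjusted p = 0.00347). Gkn1 and Gkn2 were above 0 only in duodenum sham 2 (179.6 and 430.8), whereas Gkn3 was above 0 in every duodenal library. Summed stomach genes ran from 1887 to 6064 in the duodenum and from 0 to 1547 in the ileum, and Atp4b, Gast and Muc5ac, defining genes of the stomach, were at 0 in all 10 libraries. The sum of 1547 was that of ileum VSG 4, where Sst, also a gut hormone, measured 1458. Brunner gland genes (median log2 difference 4.225, or 1.401 over the 2 above 0 in every library) had 3 of 7 called higher in the duodenum (1 without duodenum sham 2) and 1 in the ileum. Their sums were 112000 to 250500 and 13770 to 37800. Most of the duodenal sum was Dmbt1, at 105500 to 242100, and Muc5b, Bpifb1 and Slc26a9 were at 0 in all 10 libraries. Colon genes (median log2 difference -1.145, or 0.11 as deposited) had 5 of 13 called higher in the ileum (38.5%). Sums of this list ran from 23530 to 39830 in the duodenum and from 83760 to 143400 in the ileum. The largest member of the ileal sums was Mep1b, the meprin gene of the brush border given above, at 40700, 54140, 73810 and 59500. Car1 and Hoxb13 were at 0 in all 10 libraries.
Immune genes (median log2 difference 3.75, or 0.716 after quantile normalization, with 0 of 6 tested called) had 2 of 10 tested called higher in the duodenum. That number was 0 without duodenum VSG 1, VSG 2, VSG 3 or VSG 4, duodenum sham 1 or ileum sham 2 and 1 without ileum VSG 5 or sham 1. The list had sums of 1047 to 3694 against 203.2 to 910.4, and Cd3e and Cd79a were at 0 in all 10 libraries. Of 17 tested genes of stroma, muscle and vessels (median log2 difference 1.09, or -1.05 after quantile normalization), 0 were called in limma, with sums of 424.6 to 2997 in the duodenum and 938.5 to 2277 in the ileum. The part of these lists in the segment differences was not tested.

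Whether surgery acted differently on the segments was asked with an interaction term. Limma called 300 genes (1.86% of tested genes), and 1421 had an unadjusted p under 0.05. Of the 300, 250 were listed at 0 in both ileal sham libraries and 14 were above 0 in every library. Refits chosen after the data were seen left 6 calls among genes above 0 in every library and 3 calls with libraries weighted by their spread, and gave 1248, 1027, 1719 and 1454 calls without ileum VSG 4, VSG 5, sham 1 and sham 2. Of the 142 genes chosen by the naming rule, 2 had a surgery effect called different between segments, S100g and Chgb. S100g (adjusted p = 0.0136) was listed at 0 in both ileal sham libraries. Chgb was above 0 in every library, with 4717 and 5985 in the ileal VSG libraries, 1220 and 1603 in the ileal sham libraries and 6527 to 8287 in the duodenum (VSG-minus-sham difference in the duodenum minus that in the ileum -1.85 on the log2 scale, adjusted p = 0.0428). Neither passed with a pseudocount of 10 (adjusted p = 0.112 for both) or with library weights (0.164 for S100g and 0.514 for Chgb), and Chgb did not pass without limma's trend (0.263) or among genes above 0 in every library (0.264).

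The jejunal libraries, from 6 of the same 7 mice, were placed on the line from the duodenal to the ileal mean over genes called and not overlapping. Positions are medians over genes, in percent of the way to the ileum, on a scale joint to all 16 libraries. Over the 559 ileum-high genes, jejunum VSG 2, VSG 3, VSG 4 and sham 2 stood at 27.0% to 42.4%, VSG 1 at 62.9% and sham 1 at 68.4%. Over the 1218 duodenum-high genes, the same 4 libraries stood at 7.5% to 14.2%, VSG 1 at 22.9% and sham 1 at 82.2%. In VSG 1, Fabp6 measured 191100, Slc10a2 5712 and Hoxb6 2099, levels inside the ileal range, and Gata4 measured 312.7. In the other jejunal libraries Fabp6 measured 15.5 to 284.6, Slc10a2 0 to 144 and Gata4 4507 to 6247. Thus 5 of 6 jejunal libraries had medians closer to the duodenum over the duodenum-high genes, and 4 of 6 over the ileum-high genes. The 5 included the library labelled jejunum VSG 1, which carried ileal marker genes at ileal levels. This count therefore does not give place along the gut. Of the 1218 duodenum-high genes, 378 were above 0 in every duodenal and ileal library. The rest were at 0 in at least 1 ileal library. Over the 378 genes, VSG 2, VSG 3, VSG 4 and sham 2 stood at 14.1% to 31.4%. VSG 1 stood at 33.2% there and sham 1 at 84.8%. The part of the ileal zeros in these positions was not tested. Onecut2 was listed at 0 in VSG 1 and stood at 215.7 to 1695 in the other jejunal libraries.

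**Figure D5:**
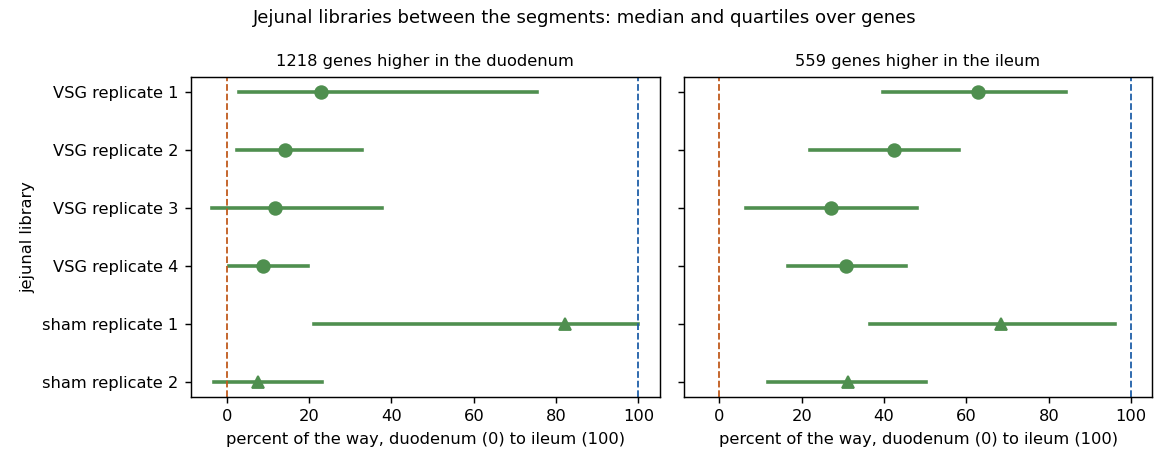
Position of each jejunal library between the duodenal mean (0%) and the ileal mean (100%), as the median (point) and quartiles (line) over 1218 duodenum-high genes and 559 ileum-high genes. Jejunum sham 1 stood at 82.2% in the former and 68.4% in the latter, and jejunum VSG 1 at 22.9% and 62.9%.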

How the data were processed

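RNA from sorted GFP+ cells was sequenced as stranded single-end reads of 85 nt. Cells positive for CD45, CD31, annexin V or Sytox had been gated out. The authors aligned the reads to mm10 with STAR 2.5.3a, quantified them with Salmon 0.6.0 and deposited DESeq2-normalized counts per gene, made within each segment on its own and used here as a signal, not as raw counts. They left out libraries with under 25% of reads mapped in duodenum and jejunum, or under 15% in ileum. Tables of the authors' own VSG-versus-sham comparisons hold fold changes and p-values and were not used.

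The 48440 genes of each deposited table were joined by identifier. All 10 libraries were rescaled together by median of ratios over 7460 genes above 0 in every library. Genes with a mean above 10 were tested on log2(value + 1) with limma 3.58.1 (R 4.3.3; trend, segment and surgery terms, Benjamini-Hochberg adjusted p under 0.05), so fold changes of low genes are understated. This is a normalized-value test because raw counts were not used, and values were not whole reads for all genes: the implied reads come from the step between low values, of which 89.2% to 97.1% were whole steps per library. The test had to pass a check on simulated data with an equal spread in both segments. The measured median log2 SD was 0.616 in the duodenum and 1.427 in the ileum. That check therefore does not give the rate of false calls in these data.

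Text genes were chosen from those called without overlap, by the gap between the lowest library of the higher segment and the highest of the lower one: the first 12 in each direction, up to 4 per gene list and direction, and Lgr5, Fabp6, Slc10a2, Gata4, Pdx1, Slc40a1 and Cybrd1 whatever their value. Of the 142 genes so chosen, 112 are given with values, among them the first 12 in each direction among genes above 0 in every library, a ranking made once values were known. Some genes of the lists are not reported here. The comparison, the gene lists and this rule were chosen with earlier results of these data known. Alpi was added once its values were known. A few markers of lists (Epcam, Krt20 and genes of other tissues) are named for their levels alone.

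Mouse codes in the labels pair the segments in 3 mice. Deviations of same-mouse libraries from their segment means correlated at 0.017, 0.02 and 0.023 across genes. Other libraries come from separate mice. Positions are GRCm38 from GENCODE M21, to which 48058 identifiers matched. Alternatives covered the pseudocount, filters, scaling, limma's trend, the surgery term, the mouse block, each surgery alone, thresholds and each library left out. Intervals and p-values cover the spread between libraries only.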

Additional observations from a re-analysis of the deposited data

Results flagged for a closer look

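Among the named genes, 204 groups of libraries were checked for a library far from its group. The measure was its gap to the nearest other library as a share of the group's range, and 29 (14.2%) were past the 95% limit. A group with all but 1 library at 0 scores 1.0 whatever the value of that library. The genes were also chosen by the gap between segments, so this share cannot be set against a rate given by chance. In the ileum, VSG 4 was the only library above 0 for Cd320, Akp3, Reg1, Tnfrsf19, Bub1b and Gkn3 (1.0 each), genes that were higher in the duodenum. Ileum sham 2 was the only one above 0 for Scarb1 (1.0) and ileum VSG 5 for Rbp4 (1.0). Mcm5 was lowest in ileum VSG 5 (0.884) and Gata4 in ileum sham 2 (0.909).

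In the duodenum, VSG 4 was the only library above 0 for Pmp22, Fabp6 and Hspa12a (1.0 each), and sham 1 for Plb1 and Tmigd1 (1.0 each). Duodenum VSG 1 was lowest for Slc1a1 (0.865), Agpat2 (0.811), Bdh1 (0.694), Rbp4 (0.774), Nts (0.7), Slc9a2 (0.659) and Cdh17 (0.809), and highest for Pck2 (0.642) and Atad3a (0.69). Gm20559 was highest in VSG 3 (0.832) and Clu in sham 2 (0.806), whereas Mgat4c was lowest in sham 2 (0.829), Nbl1 in VSG 2 (0.664) and Cubn in VSG 4 (0.661).

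The surgery effect on S100g differed between the segments in limma's interaction term (adjusted p = 0.0136), with both ileal sham libraries at 0, and so did that on Chgb (adjusted p = 0.0428), which was above 0 in every library. Outside the 2 segments, Fabp6 measured 191100 in the library labelled jejunum VSG 1. The other jejunal libraries held at most 284.6.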

How the results depend on the processing

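Of 113 named genes, 110 were past the threshold and 111 kept their direction under every alternative run. Cdh17 (0.383) and Cldn7 (0.421) reversed on the values as deposited. Genes called higher in the duodenum (1811) and in the ileum (656) came to 7580 and 150 as deposited, 844 and 253 in VSG libraries alone, 554 and 259 at an adjusted p under 0.01, 3336 and 1127 at the study's looser thresholds and, with library weights chosen after seeing the data, 533 and 192. With the mouse as a fixed replicate block in the 3 paired mice both were 0. The random block gave 1698 and 635. Duodenal calls were 1204 without a filter and 545 among genes above 0 in every library. Ileal calls were 383 without limma's trend and 181 in sham libraries alone. Leaving out each library gave 841 to 2518 duodenal and 381 to 646 ileal calls. Genes without overlap (1700 and 735) came to 5594 and 92 as deposited, 3080 and 1242 in the 6 paired libraries, 3544 and 1766 in VSG libraries, 5553 and 2186 in sham libraries, 1788 to 2797 and 767 to 986 without 1 library and, in the duodenum, 565 among genes above 0 in every library. Smaller groups overlap less often by construction. Interaction calls (300) were 478 without trend, 9 with a pseudocount of 10, 3 with weights, 6 among genes above 0 in every library and 1027 to 1719 without 1 ileal library. The cause was not tested. Calls were lost with weights for 20 named genes: Gm10110, Mgat4c, Nbl1, Meis2, Cubn, Cybrd1, Heph, Slc43a2, Scd2, Sult2b1, Cyp4f14, Zg16, Nts, Tnfrsf19, Slc9a2, Cdh17, Ctrl, Spink1, Chgb and Alpi. They were lost for 43 in VSG libraries alone, 41 in sham libraries alone, 16 as deposited, 110 with the fixed block and 1 with the random block, Nts. Depth in the ileum was 21.5 M implied reads in sham 1 and 10.9 M in sham 2. Genes used by every cell were listed at 0 in both libraries, so a 0 there shows only the listing. The part of depth in these zeros was not tested.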
